A study of Mus musculus with 2 samples.

Results

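The 10 genes described here encode transcription factors that set up the atria and ventricles of the heart and keep them apart: Tbx5, Tbx20, Nkx2-5, Gata4, Gata6, Hand2, Nr2f1, Nr2f2, Irx4 and Hey2. They were chosen by name, and their probes were found through the RefSeq accession printed on the array, which gave 13 probes for 10 of 21368 named genes. The study measured total RNA from mouse heart on 1-colour Agilent expression arrays, with 1 array per group. The control heart came from C57BL6 background with the genotype given as control. The other heart came from a transgenic mouse of the same background, of the B6.Cg-Tg type and line (CAG-WRN*K577M) 5025Wcl/Mmmh, and is called the WRN-K577M or transgenic heart. WRN is a DNA helicase whose loss causes the premature ageing disease Werner syndrome, and the transgene carries a substitution in the helicase domain. The CAG promoter that drives it is active in most tissues, so its expression is not limited to cardiomyocytes. Age, sex, the parts of the heart taken, any pooling of mice and the letters ND in both sample titles are not given in the sources. The comparison addresses signalling behind cardiac remodelling.

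As background, Nkx2-5, Gata4, Tbx5 and Tbx20 form the core of the cardiac programme: they bind one another and switch on genes for contraction, conduction and natriuretic peptides together. The COUP-TF nuclear receptors Nr2f1 and Nr2f2 maintain atrial identity, while the homeodomain factor Irx4 and the Notch-responsive repressor Hey2 mark ventricular muscle and hold down atrial genes there. The basic helix-loop-helix factor Hand2 is needed to build the right ventricle, and Gata6 shares many sites with Gata4.

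None of the 10 factors differed by 2-fold or more between the arrays, beside 5.39% of all 14004 genes measured on both, but Hand2 lay at the edge. Levels of Hand2 (log2 ratio -0.997, 1.996-fold lower in the transgenic heart), Nr2f1 (-0.63), Irx4 (-0.62) and Nkx2-5 (-0.49) were lower. Hey2 was higher (0.68) at a signal barely above background, and Tbx5 (0.17), Nr2f2 (0.12), Gata4 (0.038), Tbx20 (-0.026) and Gata6 (-0.027) were each within 1.2-fold. Levels are log2 processed signals minus the array's 75th percentile. Each log2 ratio subtracts the control from the WRN-K577M level. With 1 array per group there is no replicate check, no test between genotypes and no p-value, so a ratio describes these 2 samples.

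Promoter sequences are shown for the 4 factors whose levels were lower in the transgenic heart, so that shared sequence can be looked for. Each line gives the 250 bases before the annotated start from RefSeq, build GRCm38.p6, 5′ to 3′ on the gene's strand, with the motifs searched for in capitals. Hand2 lies at chr8:57320733-57320982 (plus strand), Nkx2-5 at chr17:26841566-26841815 (minus), Irx4 at chr13:73260247-73260496 (plus) and Nr2f1 at chr13:78198874-78199123 (minus).
Hand2: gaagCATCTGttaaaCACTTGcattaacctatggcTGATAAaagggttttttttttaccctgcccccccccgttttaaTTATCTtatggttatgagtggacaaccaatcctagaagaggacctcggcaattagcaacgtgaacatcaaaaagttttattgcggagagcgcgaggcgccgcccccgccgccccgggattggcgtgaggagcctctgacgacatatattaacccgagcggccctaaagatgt
Nkx2-5: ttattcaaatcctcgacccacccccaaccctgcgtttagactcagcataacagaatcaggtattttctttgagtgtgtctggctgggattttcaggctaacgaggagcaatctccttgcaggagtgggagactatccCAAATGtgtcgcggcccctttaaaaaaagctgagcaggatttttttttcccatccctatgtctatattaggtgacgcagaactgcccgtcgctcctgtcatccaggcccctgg
Irx4: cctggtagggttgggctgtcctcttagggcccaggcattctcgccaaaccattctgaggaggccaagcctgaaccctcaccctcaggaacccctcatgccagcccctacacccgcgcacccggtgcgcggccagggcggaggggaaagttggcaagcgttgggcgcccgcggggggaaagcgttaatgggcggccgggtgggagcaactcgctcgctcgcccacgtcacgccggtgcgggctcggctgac
Nr2f1: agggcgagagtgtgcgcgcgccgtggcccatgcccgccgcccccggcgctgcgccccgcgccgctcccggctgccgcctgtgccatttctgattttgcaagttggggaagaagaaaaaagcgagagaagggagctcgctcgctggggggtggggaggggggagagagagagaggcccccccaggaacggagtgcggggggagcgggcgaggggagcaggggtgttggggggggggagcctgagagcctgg

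The motifs, searched on both strands, were those of the factors themselves: AGATAA or TGATAA for GATA factors, AGGTGT for T-box factors, TNAAGTG for Nkx2-5, AGGTCA for nuclear receptors such as the COUP-TFs, and CANNTG, the E-box of Hand and other helix-loop-helix factors, which includes the CACGTG of Hey factors. The Hand2 window held 2 GATA matches, at bases -215 to -210 and -172 to -167 from the start, and 2 E-boxes. At least 1 GATA match is found in 16.6% of all 32851 promoter windows of this length in the table, and at least 1 E-box in 66.2%. The Nkx2-5 window held 1 E-box, and the windows of Irx4 and Nr2f1 shown above held none of the motifs. Nr2f1 has a further annotated start whose window held 2 E-boxes. No motif was therefore common to all 4 windows. The T-box, Nkx2-5 and nuclear receptor motifs, present in 11.8%, 10.1% and 14.0% of all windows, were in none of the 8 member windows searched. GC content was 72% for the Nr2f1 window shown, 68.8% for Irx4 and 49.2% for both Hand2 and Nkx2-5, beside a median of 52.4% over all windows. Of the other factors, Tbx20, Nr2f2 and Hey2 had a window in the table and Tbx5 and Gata4 did not. Member windows on the chromosome of Gata6 were left out of the search, so no Gata6 window was looked at. The shares over all windows keep that chromosome. A match describes the sequence and does not show binding.

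All 13 probes were well above background on both arrays by the software's flag, so every factor was measured in both hearts and none passed through one array alone. The 75th percentile of the processed signal was 256 in the control array and 209.7 in the WRN-K577M array, and 55.2% and 52.9% of all probes were well above background. Both arrays held RNA of heart muscle: of 7 cardiomyocyte markers all were measured, with a median log2 ratio of 0.18 and a summed level, on the linear scale relative to the 75th percentile, of 2415 in the control and 2717 in the transgenic heart. That median was -0.022 after quantile normalization and at or above 0.00079 under the other 6 alternatives run on the lists. Several genes of other tissue sources differed strongly. Of 11 lung epithelial markers, 7 were well above background in the control array only, 2 in both and 2 in neither, and the level of the surfactant gene Sftpc was lower by at least 1336-fold in the transgenic heart. Of 6 adipocyte markers, 4 were measured and 3 of them were at least 2-fold lower. The other, Fabp4, was the brightest and was higher (0.53). The summed adipocyte level was therefore 153 in the control and 195.9 in the transgenic heart, against the direction of the count. In bulk tissue, fewer cells of a type and less RNA per cell cannot be told apart.

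**Figure D1:**
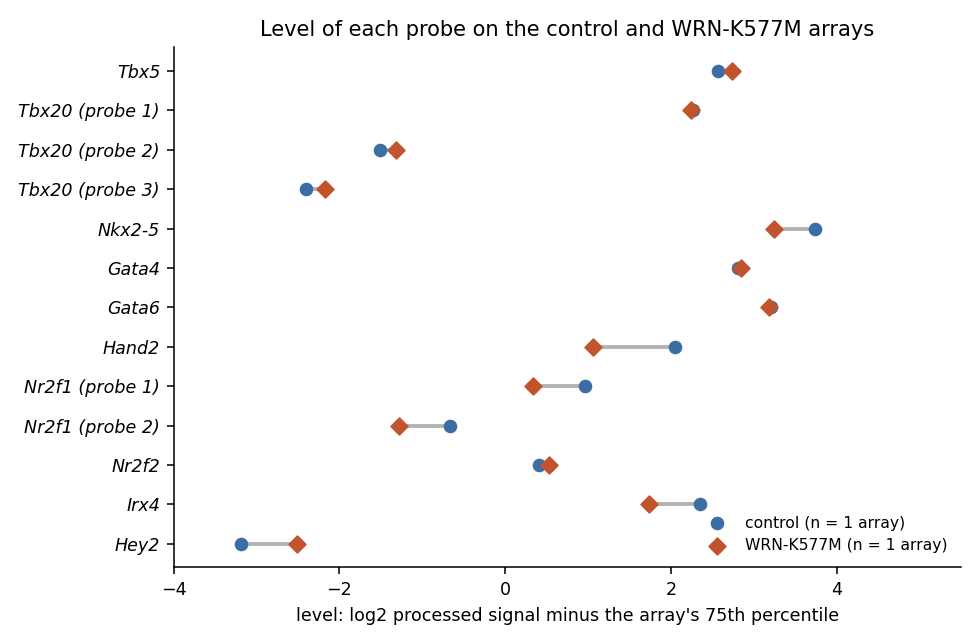
Level of each of the 13 probes (horizontal axis, log2 processed signal minus the 75th percentile of the array) on the control array (circles) and the WRN-K577M array (diamonds), 1 array each. The diamond of Hand2 lies to the left of its circle (log2 ratio -0.997) and that of Hey2 to the right (0.68), while Gata4 and Gata6 overlap; positions of different probes are not comparable, since probes differ in efficiency.

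Among the core factors, Nkx2-5 stood apart from its partners. Nkx2-5, the homeodomain factor that is among the earliest markers of cardiac muscle, had a processed signal of 3411 in the control and 1993 in the transgenic heart, levels of 3.74 and 3.25. The level was lower by a log2 ratio of -0.49, or 1.40-fold, and 11.7% of the 14004 genes measured on both arrays had a lower ratio. Gata4, a zinc finger factor that controls growth of cardiomyocytes, gave signals of 1796 and 1511, which become levels of 2.81 and 2.85 once each array is scaled. Gata6, its close relative, gave signals of 2366 and 1903 and levels of 3.21 and 3.18. The log2 ratios of the GATA factors, 0.038 and -0.027, lie on either side of 0 and differ from each other by 0.065. Within the arrays, where scaling by a single factor cancels, Nkx2-5 was lower relative to Gata4 by a log2 difference of -0.53, or 1.44-fold.

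Tbx5, the T-box factor mutated in Holt-Oram syndrome and higher in atria and the left ventricle than in the right, had signals of 1513 and 1391 and levels of 2.56 and 2.73. Its log2 ratio of 0.17 was 0.00079 after normexp background correction, the alternative that moved it most. Tbx20, a T-box factor needed to maintain adult cardiomyocytes, was read by 3 probes designed on different transcripts. The brightest had signals of 1234 and 993, the second 90.1 and 84.1, and the dimmest 48.5 and 46.4. Their log2 ratios were -0.026, 0.19 and 0.22, spanning 0.25. The dimmer probes were 2.18 to 3.17 times their local background in the control by median spot intensity, and the brightest was 25.8 times. The sign of the Tbx20 ratio therefore depended on the probe, with 0.13 as the mean of all 3, while none exceeded 1.2-fold.

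Hand2 showed the largest difference of the 10. It had a processed signal of 1062 in the control and 436 in the transgenic heart, levels of 2.05 and 1.05, and its median spot intensity was 29.4 and 12.4 times the local background. The log2 ratio of -0.997, or 1.996-fold lower, lies just short of 2-fold, and 3.49% of measured genes had a lower ratio. Hand2 was read by 1 probe with 1 spot per array, so it has no spread between spots of its own. Spots of other probes, printed repeatedly, differ in log2 ratio by an SD of 0.068 at a similar brightness (82 probes within 1 log2 unit). The software's own error of the Hand2 ratio was 0.20. Both errors cover measurement within an array and not the spread between mice. With 4 of 9 other ways of processing the ratio crossed 2-fold, down to -1.05 with the deposited matrix, and after normexp it was -0.88. The filters on dim probes and the probe mean left it unchanged, since Hand2 has 1 probe.

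The long non-coding RNA Hand2os1, also called Upperhand, is transcribed away from Hand2, and the annotated starts lie on opposite strands with 123 bases between them, inside the Hand2 window printed above. Its levels were 3.79 and 4.09, a log2 ratio of 0.30 that stayed between 0.23 and 0.30 in all 9 alternatives. That ratio, like that of Hand2, rests on 1 spot per array. It lies close to the upper quartile of all measured genes (0.24), so its difference is small. The log2 ratios of Hand2 and Hand2os1 thus lay on opposite sides of 0. Hand2 was lower relative to Hand2os1 by a log2 difference of -1.30, or 2.46-fold. The sources used here do not say how well either probe tells the strands apart. Hand2 is also expressed outside muscle, in sympathetic neurons and in fibroblasts. Of 6 sympathetic neuron markers, 4 were measured and 1, Dbh, which makes noradrenaline, was at least 2-fold lower (-2.73). Their summed level was 4.64 in the control and 2.23 in the transgenic heart, and nearly all of that difference was Dbh. The other measured ones were Th (-0.14), Phox2a (0.57) and Prph (0.67). The list median was 0.21, and -0.14 with the stricter filter on dim probes. Of 10 fibroblast markers, 6 were at least 2-fold lower, with a median log2 ratio of -1.16 and summed levels of 488 and 400.2. The lower ones included the collagen genes Col3a1 (-2.29), Col1a1 (-1.73) and Col1a2 (-1.30). The other 4, Pdgfra (-0.18), Dcn (-0.059), Gsn (0.092) and Tcf21 (0.25), lay closer to 0, so the list did not move as a whole. The part of sympathetic neurons and fibroblasts in the Hand2 difference was not tested.

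The COUP-TF receptors differed from each other. Nr2f1, which is enriched in atrial muscle, was read by 2 probes, the brighter with signals of 500.2 in the control and 266 in the transgenic heart and the dimmer with 161 and 86.1. Their log2 ratios were -0.63 and -0.62 and differed by 0.0081, so that 1.54-fold and 1.53-fold lower levels were read by separate probes of the same RNA samples. Of measured genes, 8.14% had a lower ratio. Nr2f2, which represses ventricular genes in atrial muscle and specifies veins and lymphatic vessels, had signals of 340.0 and 302, levels of 0.41 and 0.52, and a log2 ratio of 0.12 that was -0.0044 after normexp. Relative to Nr2f2, Nr2f1 was lower by a log2 difference of -0.74, or 1.67-fold.

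Several atrial effector genes were far lower in the same heart. Of 15 atrial markers 13 were measured, 7 were at least 2-fold lower and none as much higher, with a median log2 ratio of -1.06 and summed levels of 685 and 180.0. The other 6 were Kcnj5 (-0.64), Stard10 (-0.52), Chrm2 (-0.28), Kcnj3 (-0.19), Pam (0.023) and Kcna5 (0.13), so the list did not move as a whole. After normexp background correction the median was -0.75 and 5 genes passed 2-fold. The stricter filter on dim probes left 11 measured, with a median of -0.64 and 5 past 2-fold, all on the lower side. The log2 ratio of Hamp, which encodes the iron regulator hepcidin, was -2.52 and became -0.75 after normexp. Bmp10, a peptide of the right atrium, was not above background in either heart, and Fgf12 was above it in the control only. The atrial sarcoplasmic protein Sln gave levels of 6.14 and -3.27 in the control and transgenic hearts. Among the factors associated with atria, Nr2f1 was lower along with the 7 markers at least 2-fold lower, while Tbx5 and Nr2f2 lay within 1.2-fold. The part of atrial tissue in the Nr2f1 difference was not tested. For Nr2f2, the 6 venous and lymphatic endothelial markers had a median log2 ratio of -0.12, with 1 of them, the apelin receptor Aplnr, at least 2-fold lower (-2.57, and -1.09 after normexp). With the stricter filter, which left 4 of the 6, that count was 0.

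Irx4 and Hey2, the ventricular pair, lay on opposite sides. Irx4, an Iroquois homeodomain factor confined to ventricular muscle, had signals of 1307 in the control and 698 in the transgenic heart, levels of 2.35 and 1.73. Its log2 ratio of -0.62, or 1.53-fold lower, ranged from -0.67 to -0.61 over 9 alternatives, and 8.30% of measured genes had a lower ratio. Hey2, a repressor downstream of Notch that is strongest in the compact layer of the ventricle, gave signals of only 28.1 and 36.7, levels of -3.19 and -2.51. Its median spot intensity was 1.45 times the local background in the control and 1.82 times in the transgenic heart. At that brightness the ratio varied between spots of one probe with an SD of 0.21 (43 probes), against 0.063 near Irx4, so the Hey2 log2 ratio of 0.68 was read with the least precision of the 10. It was 0.49 after normexp, and a stricter filter on dim probes leaves Hey2 out.

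Ventricular markers lay on both sides of 0, with 4 of 8 above it, 1 at least 2-fold higher and a median log2 ratio of -0.045. Their summed levels were 2208 (control) and 3061 (transgenic), and most of that rise came from Myh7. The higher one was Myh7, the slow myosin heavy chain of fetal ventricle (3.91). Myl2, the ventricular regulatory light chain that Irx4-expressing muscle contains, had a log2 ratio of 0.17 and Gja1, the connexin of working muscle, one of -0.85. Of the rest, Fhl2 (-0.52), Kcnd2 (-0.47) and Mpped2 (-0.26) were lower, and Kcnip2 (0.85) and Myl3 (0.25) were higher. The lower level of Irx4 thus stood beside ventricular markers that differed in both directions. Relative to Tbx5, Irx4 was lower by 1.72-fold.

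**Figure D2:**
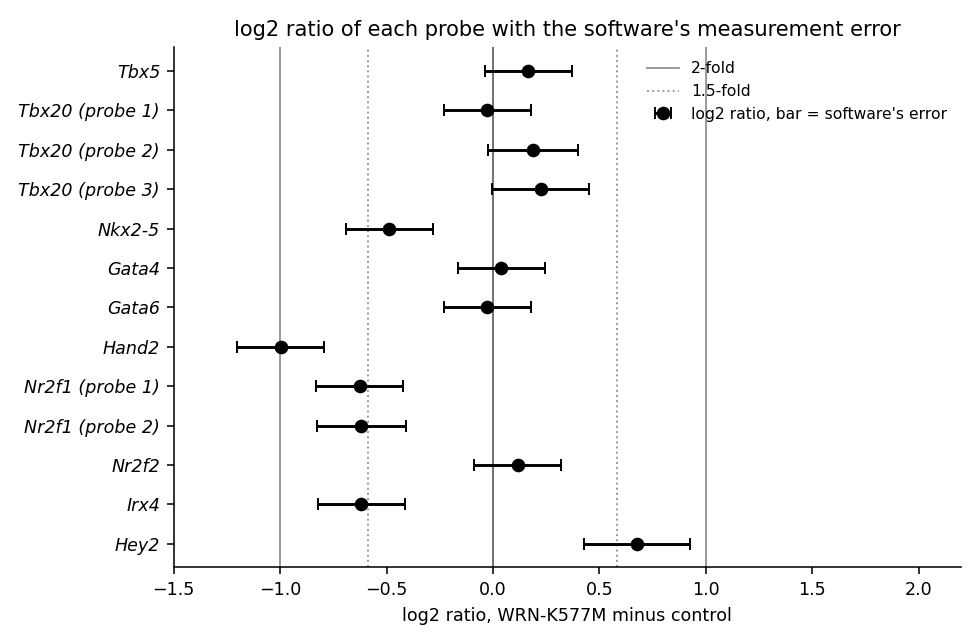
log2 ratio (WRN-K577M minus control) of each of the 13 probes, with bars for the error that the array software gives, which covers measurement only. No point lies beyond the 2-fold lines, Hand2 lies on one of them, both Nr2f1 probes and Irx4 lie just past the 1.5-fold line on the lower side, and Hey2 lies past it on the higher side with the widest bar (0.25).

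Set against all genes, the count at 2-fold was 0 of 10 factors beside 5.39% of the 14004 measured genes, of which 3.46% were lower and 1.94% higher. At 1.5-fold, 4 of 10 factors differed beside 15.9% of measured genes: 3 were lower (9.15% of measured genes) and 1 was higher (6.76%). By probes, none of 13 differed at least 2-fold beside 4.7% of all probes, and 5 of 13 differed at least 1.5-fold beside 15.3% (both over probes measured on both arrays). Below 0 lay 6 of 10 ratios, beside 47.6% of measured genes. The median log2 ratio of the factors was -0.026 and that of all measured genes 0.020 (quartiles -0.22 and 0.24). The factors thus had a median near that of all genes and were spread from -0.997 to 0.68.

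**Figure D3:**
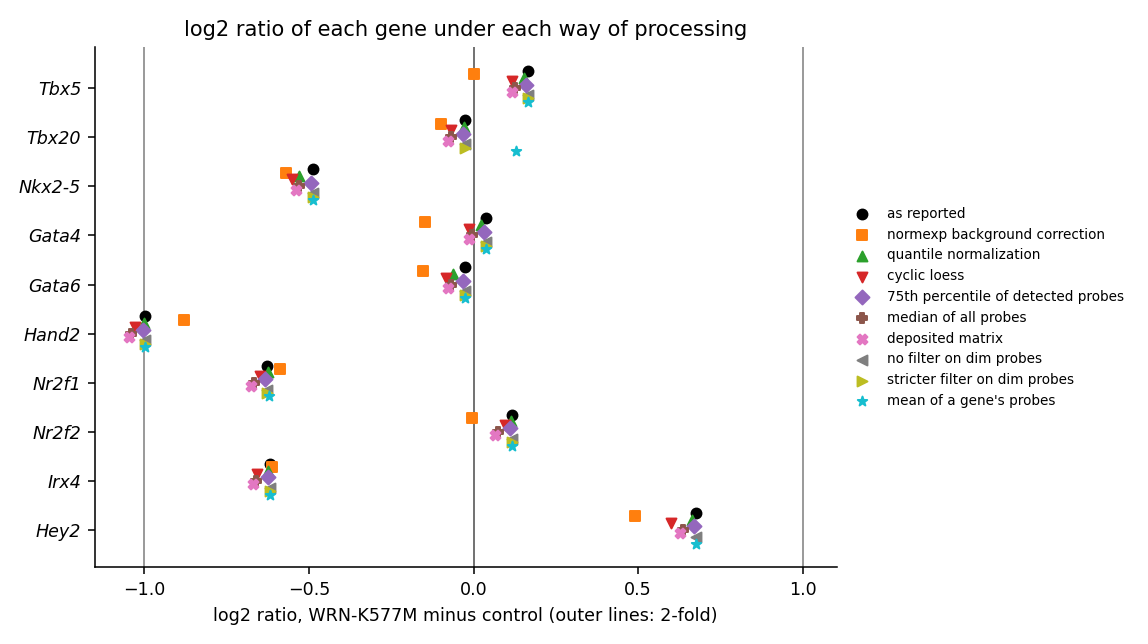
log2 ratio of each factor (vertical axis) under the reported processing and 9 alternatives, with outer lines at 2-fold. Hand2, Nr2f1, Irx4 and Nkx2-5 stay below 0 and Hey2 and Tbx5 above 0 under each setting that gives a value, whereas the signs of Gata4, Tbx20 and Nr2f2 change.

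The relatives and partners of the factors were followed in lists. Of 15 other T-box genes, 8 were measured and none was at least 2-fold different. The highest were Mga (0.74), a large repressor that binds Max, the epicardial factor Tbx18 (0.72) and Tbx15 (0.52). Tbx18 and Tbx15 were dim, at control levels of -3.08 and -4.10, and Tbx18 was 0.42 after normexp. The stricter filter on dim probes kept 6 of the 8. Tbx3, which represses working-muscle genes in the conduction system and lies next to Tbx5, was lower (-0.36). Tbx4, a factor of lung and hindlimb mesenchyme, was well above background in the control heart only, at least 2.62-fold lower in the other. The list median of 0.048 ranged from -0.029 to 0.098 over 7 alternatives.

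Among 6 other GATA factors and cofactors, 5 were measured and none was at least 2-fold different. Zfpm1 (-0.62) and Zfpm2 (-0.38), the Friend of GATA proteins that bind GATA factors and curb or modify their activity, were both lower, whereas Gata3 (0.47) and Gata2 (0.28) were higher. The erythroid factor Gata1 passed background in the transgenic heart alone, at least 1.66-fold higher. The list median was 0.12 and took the other sign under 1 of 7 alternatives. Of 5 Iroquois relatives of Irx4, 4 were measured, and Irx5 (0.28), Irx3 (0.20), which are expressed in ventricle and conduction fibres, Irx1 (-0.054) and Irx2 (-0.042), the neighbour of Irx4, all lay closer to 0 than its -0.62. Their median was 0.077.

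All 14 genes of the Notch pathway and other Hey factors were measured, with a median log2 ratio of -0.080. Notch1, a receptor of endocardium and vessels that acts upstream of Hey genes, was the only one at least 2-fold different under the reported processing, at levels of 2.26 and -0.96 (log2 ratio -3.22). That rests on 1 probe, since another Notch1 probe was above background on neither array. The Notch target Nrarp (-0.96) lay near 2-fold: it ranged from -1.02 with cyclic loess to -0.24 after normexp, and the count of genes at least 2-fold lower was 2 with cyclic loess, the median of all probes and the deposited matrix. Heyl (-0.56) was lower, Hes1 (0.54) was higher, and Hey1 was near equal (-0.12). Of 6 arterial endothelial markers, 5 lay below 0, with a median of -0.41 and none at least 2-fold different, and the summed level was 12.1 in the control and 8.98 in the transgenic heart. The part of vessels in the Notch and Hey values was not tested.

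Hand1, the sister gene of Hand2, was not above background in either heart. The 5 measured partners and relatives in its list, which dimerise with Hand proteins or share their fold, had a median of -0.093 and none at least 2-fold different. The largest were Twist1 (-0.39, turning to 0.28 after normexp), Tcf4 (0.16), Tcf12 (-0.14) and Tcf3 (-0.093). The list median took the other sign under 1 of 7 alternatives.

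Of 23 other cardiac transcription factors and cofactors, 20 were measured, 1 was at least 2-fold lower and none as much higher, with a median of -0.18. The lower one was Myocd (-1.09), myocardin, the coactivator of serum response factor in cardiac and smooth muscle, at levels of 3.06 and 1.97. Casz1 (0.91), a zinc finger factor that binds Tbx5, Nkx2-6 (0.78), a relative of Nkx2-5 at a level near background, and Nr2f6 (-0.77), the third COUP-type receptor, followed. The nodal factors Isl1 and Shox2 were not above background in either heart. The median took the other sign under 1 of 7 alternatives.

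All 17 genes listed as known targets of the factors were measured. In the transgenic heart 3 were at least 2-fold higher: the natriuretic peptide gene Nppb (2.26), the stress-responsive Ankrd1 (1.33) and the adenosine receptor Adora1 (1.23). In the other direction lay the connexin Gja5 (-1.31) and Nppa (-1.06), which Tbx5 and Nkx2-5 activate together and which also belong to the atrial list. After normexp the Gja5 ratio was -0.84, inside 2-fold. The other 12 were within 2-fold, among them Myh6 (0.18), Tnni3 (0.15), Actc1 (0.13) and Atp2a2 (0.13), targets of Gata4, Nkx2-5 or Tbx5 that build the contractile and calcium apparatus. The list median was 0.13 and changed sign under 2 of 7 alternatives.

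**Figure D4:**
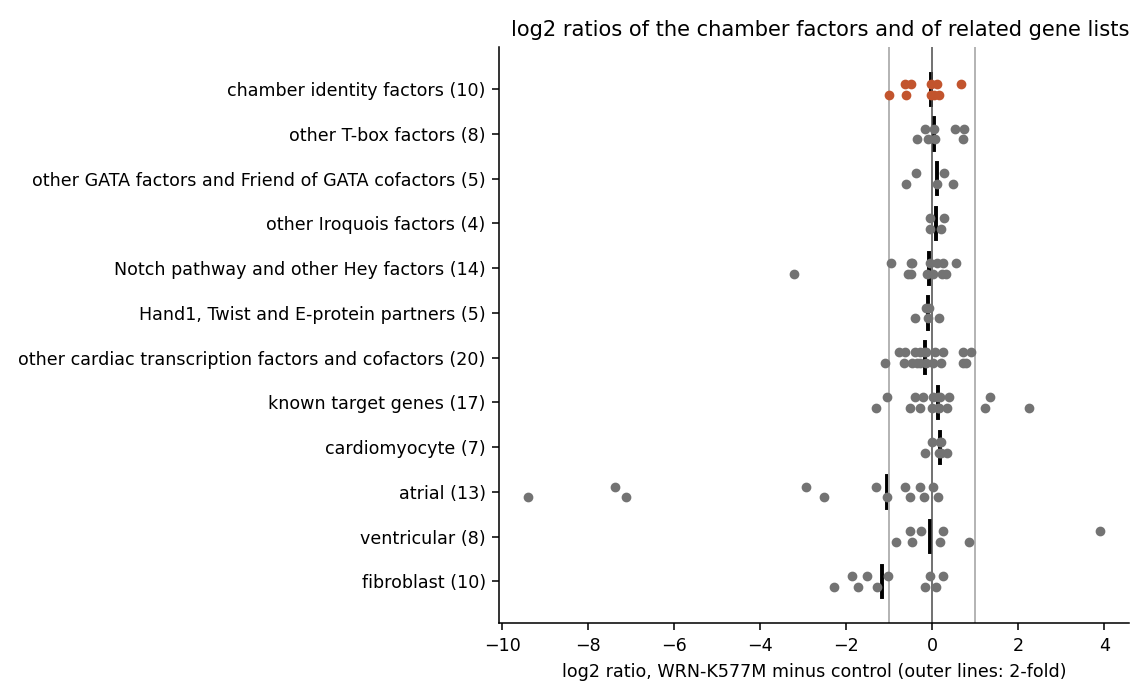
log2 ratio (WRN-K577M minus control) of each measured gene of the 10 chamber factors (coloured points) and of related lists (grey points), with a bar at each list's median, the number of measured genes in brackets and lines at 2-fold. The chamber factors lie within the 2-fold lines around a median of -0.026, while atrial markers reach -9.41 around a median of -1.06 and fibroblast markers have a median of -1.16.

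Of the remaining marker lists, 5 of 7 epicardial and mesothelial genes lay above 0 with a median of 0.37, and the 5 endocardial genes had a median of 0.18. Endothelial genes had a median of -0.12 with none of 10 at least 2-fold different, but the tight junction gene Cldn5 (-0.99) lay at the threshold, and 1 gene was past it under 4 of 7 alternatives (quantile normalization, cyclic loess, the median of all probes and the deposited matrix). Smooth muscle and pericyte genes had a median of 0.042, whose sign turned under 2 of 7 alternatives, with 1 of 9 at least 2-fold lower (2 with cyclic loess). Of 8 node and conduction genes, 4 were measured and 2 were at least 2-fold lower (1 after normexp), and Hcn4, Shox2, Isl1 and Cntn2 were not above background in either heart. The median of the sympathetic neuron list was 0.21 (-0.14 under 1 of 7 alternatives) and that of the adipocyte list -2.93.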

How the data were processed

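Members and gene lists were chosen with earlier results of these data known. The spot files hold intensity values that the submitters' processing notes credit to Agilent Feature Extraction 11.5.1.1 and that are, per the file headers, a background-subtracted, detrended processed signal not scaled between arrays, raw spot and background intensity, and flags. The deposited matrix is that signal times 4.12 (control) and 4.86 (WRN-K577M), on a linear scale with no centring (column medians 79.5 and 79.0), and the choice of factors is unstated here. Control spots and 257 outlier spots were left out, none was saturated, and spots of a probe were averaged. Accessions were matched without versions to RefSeq names of GRCm38.p6, naming 28330 of the probes; the array is annotated on mm9, per the file headers, so coordinates are those of the promoter table only. A gene took its brightest probe well above background on both arrays. One-sided genes have a bound: the brighter level against the higher of the other array's own level and its lowest level well above background (-4.73 control, -4.42 WRN-K577M). The spread between spots came from 269 probes printed 10 times (SD of the log2 ratio 0.12). With 1 array per group no test was possible; counts use 2-fold and 1.5-fold. Text names every member, its opposite-strand partner, and from each list of related factors or targets the members with the 4 largest absolute ratios and those at least 2-fold different; marker lists are given by counts and medians, and other list genes, named for their role, were chosen after their values were seen. Alternatives were normexp (offset 50, on median rather than the planned mean signal), quantile normalization, cyclic loess, other scalings, the deposited matrix, filters, the probe mean and other thresholds. Python 3.11.15, numpy 2.4.6, pandas 2.3.3, matplotlib 3.10.9, R 4.3.3 and limma 3.58.1 were used. The counting code was run on simulated data with changes well past 2-fold. That run says nothing about genes near the threshold, such as Hand2, or about the spread between mice. Some list members enter the counts but are not reported here by name.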

Additional observations from a re-analysis of the deposited data

How the results depend on the processing

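The count of factors at least 2-fold different was 0 of 10, beside 5.39% of measured genes. It was 1 (Hand2, which lies at the threshold) with cyclic loess, beside 5.51% of genes. The same count of 1 came with the 75th percentile of detected probes (5.4% of genes), the median of all probes (5.5%) and the deposited matrix (5.5%). At a threshold of 1.5-fold the count was 4, beside 15.9% of measured genes. At 3-fold it was 0, and no share over all genes was computed there. The median log2 ratio of the factors was -0.026 and moved to -0.15 after normexp background correction, and lay between -0.077 and 0.0059 under the other 8 alternatives. Hand2, Nr2f1, Irx4 and Nkx2-5 kept their direction under all 9 alternatives. The filters and the probe mean gave Hand2, Irx4 and Nkx2-5 the reported value, since each has 1 probe. The other scalings and the deposited matrix shifted every gene by one amount, -0.051 at most, so they could not turn these signs. Hey2 kept its direction under the 8 that measured it, and the stricter filter on dim probes left it without a value. The sign turned for Gata4 under 4 alternatives, and for Tbx20 and Nr2f2 under 1 each. Without a filter on dim probes the median over all genes was 0.12 instead of 0.020, and no scaling shifted it by over 0.1. Signal over background limits Hey2 and the dimmer Tbx20 probes most. No paired analysis was possible because each group holds 1 array.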
